A study of Arabidopsis thaliana with 33 samples.

Results

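The photoreceptor genes of Arabidopsis thaliana were followed through shoot regeneration from hypocotyl explants. They are 10 loci taken by gene identity, out of 33400 loci in the count table. The list holds the 5 phytochromes PHYA, PHYB, PHYC, PHYD and PHYE, the cryptochromes CRY1 and CRY2, the UV-B receptor UVR8 and the phototropins PHOT1 and PHOT2. All 10 passed the filter on low counts that left 20842 genes for testing.

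Phytochromes are red and far-red photoreceptors with a linear tetrapyrrole chromophore, cryptochromes and phototropins are blue-light receptors with flavin chromophores, and UVR8 senses UV-B through its own tryptophan residues. Phytochromes, cryptochromes and UVR8 act in large part by restraining the COP1/SPA ubiquitin ligase, which targets the bZIP transcription factor HY5 for degradation, and phytochromes also remove PHYTOCHROME-INTERACTING FACTORS (PIFs). Phototropins are membrane-associated kinases that direct phototropism, chloroplast movement and stomatal opening.

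The wild type was Col-0 and the mutant was hy5-2, an allele of HY5. Hypocotyl explants came from 7-day-old seedlings raised at 22 °C in continuous low light after some hours of high light at germination, and this stage before culture is called T0. Explants then spent 4 days on callus induction medium (CIM, with 2,4-D at 0.5 mg/L and kinetin at 0.1 mg/L) and after that 4 or 8 days on shoot induction medium (SIM, with IAA at 0.15 mg/L and 2-iPA at 0.5 mg/L). Low light was 2 µmol/m2/s and high light 40 µmol/m2/s. RNA-seq was made from 11 groups of 3 biological replicates, 33 libraries in all. Col-0 was sampled at T0 in low light and, in both lights, at CIM 4 days, SIM 4 days and SIM 8 days. The hy5-2 mutant was sampled at T0 in low light and at the same 3 culture times in high light. No hy5-2 culture in low light was analysed here, and high light began with culture, so medium, time in culture and, in high light, time under that light cannot be told apart. The genotype comparison in culture and the light comparison use the same Col-0 high-light libraries.

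Library totals ran from 7.24 to 21.18 M assigned reads with a median of 10.06 M, and 5138 loci had no read in any library. HY5 itself stood at 1.86 to 3.75 CPM, the reads of a gene per M reads of scaled library total, in the 12 hy5-2 libraries and at 6.53 to 47.5 CPM in the 21 Col-0 libraries, with no overlap. Marker lists were read for the tissue. The 9 root meristem and callus markers summed to 119.5 to 135.0 CPM at T0 in Col-0, with PLT2 at 0, and to 779.8 to 825 CPM at CIM 4 days in low light, where 9 of 9 rose. Of all genes tested 39.1% rose over that step. The 5 green tissue markers summed to 2741 to 5440 CPM in Col-0 at T0 and to 2545 to 2983 CPM in hy5-2 at T0, and markers of epidermis, xylem and phloem were all detected there. In culture the green sum was 65.7 to 82.5 CPM in low light, 190 to 351 CPM in high light and 13.4 to 35.5 CPM in hy5-2 at CIM 4 days. At SIM 8 days it was 48.8 to 78.6 CPM in low light, with CAB3 at 0, 931 to 965 CPM in high light and 24.5 to 50.4 CPM in hy5-2. In high against low light at SIM 8 days 5 of 5 green markers and 6 of 6 xylem markers rose, and in hy5-2 against Col-0 at that time 5 of 5 green markers fell. Of all genes tested 16.0% rose in the first comparison and 13.4% fell in the second. The 5 shoot meristem markers summed to 36.2 to 45.9 CPM under low light, 60.9 to 69.2 CPM under high light and 41.0 to 49.8 CPM in hy5-2 at SIM 8 days, with none at 0. Of these 0, 3 and 3 rose in high light at the 3 culture times, and in hy5-2 1 rose at CIM 4 days, 1 fell at SIM 4 days and 3 fell at SIM 8 days. These markers moved with the light and genotype results given here, and their part in those results was not tested.

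Compared per kilobase of coding length, PHOT1 was the most abundant of the 10 transcripts in Col-0 at T0, at 117 CPM per kb, followed by CRY2 at 107, PHYA at 84.0, UVR8 at 82.8 and CRY1 at 56.0 CPM per kb. PHYD was lowest there at 10.2 CPM per kb. In all 9 cultured groups PHOT1 was the lowest, between 0.723 and 4.12 CPM per kb. CRY2 was the highest cultured member on this scale except in hy5-2 at CIM 4 days, where PHYA stood at 68.9 CPM per kb and CRY2 at 64.0. When the 11 group means of a gene were put in order, the libraries of neighbouring groups did not overlap at 5 of 10 steps for PHYA, 4 for PHOT1, 3 each for CRY1, CRY2 and UVR8, and 2 for PHYB. For PHYC, PHYD, PHYE and PHOT2 neighbours overlapped at every step. The highest group mean was 162 times the lowest for PHOT1, 2.78 times for CRY1 and 1.17 times for PHYC.

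**Figure D1:**
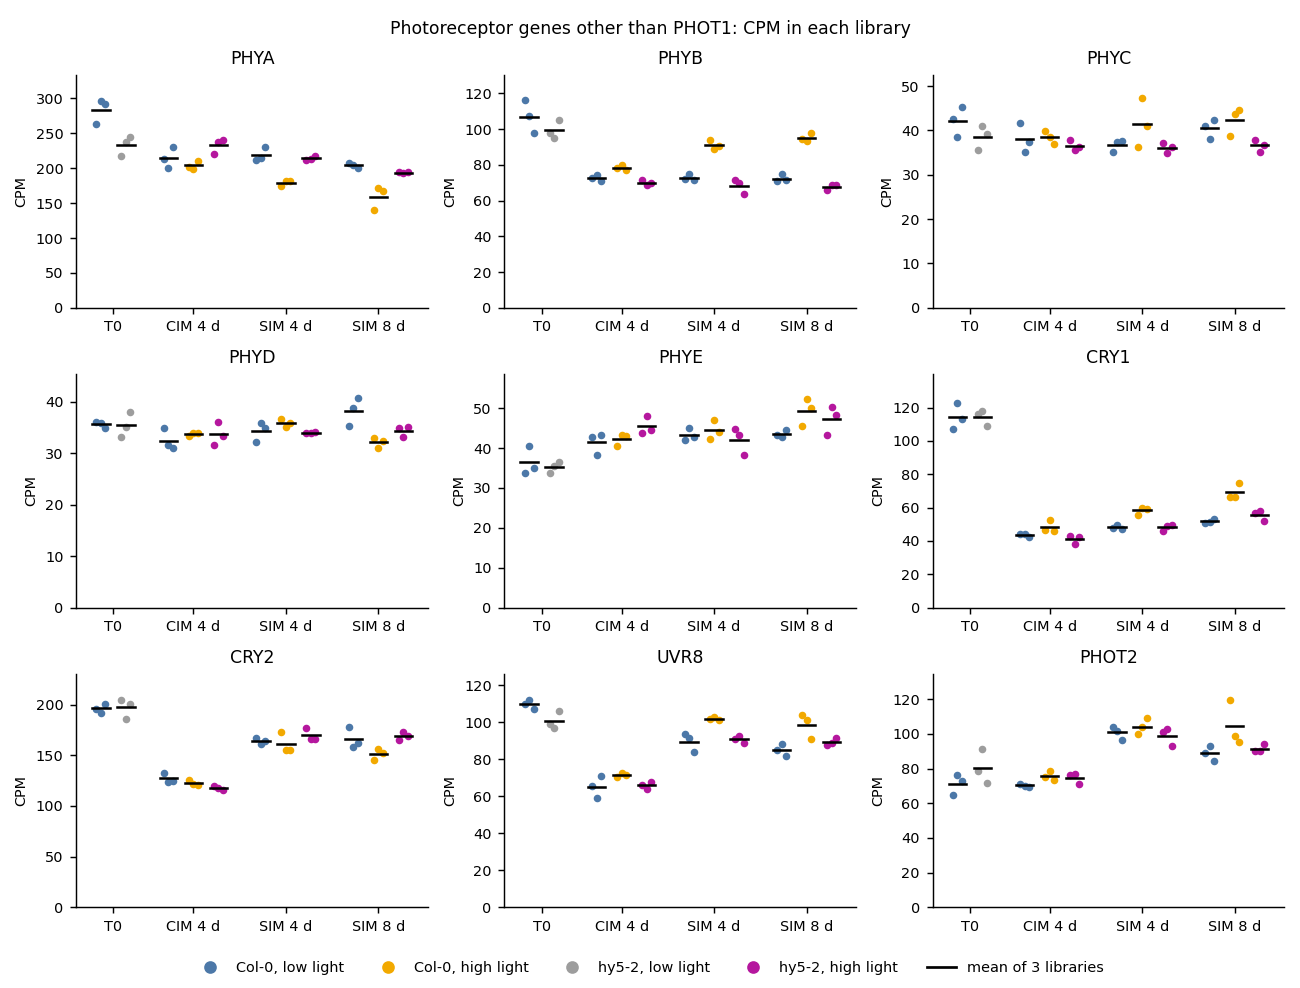
Expression of 9 photoreceptor genes, PHOT1 excepted, in CPM per library (points, 3 per group) over the 11 groups of Col-0 in low light, Col-0 in high light and hy5-2, with the group mean as a bar across the points. PHYA in Col-0 high light lies below the other groups at both SIM times, PHYB in Col-0 high light lies above them, and CRY1 is at 107 to 123 CPM at T0 in Col-0 and at no more than 74.6 CPM in any cultured library.

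High light in culture changed a part of the 10 genes. In Col-0 1 of 10 passed the test in high against low light at CIM 4 days, 5 of 10 at SIM 4 days and 7 of 10 at SIM 8 days, by edgeR's quasi-likelihood test at a Benjamini-Hochberg adjusted p under 0.05. Over all genes tested 8.29%, 13.5% and 27.6% passed at these times, with 5.14%, 9.09% and 16.0% higher and 3.14%, 4.39% and 11.6% lower. Of the members 1, 4 and 5 were higher and 0, 1 and 2 lower. PHYB, CRY1 and UVR8 rose and PHYA fell in high light at both SIM times, PHOT1 rose at all 3 times, and PHYD fell and PHOT2 rose at SIM 8 days. PHYC, PHYE and CRY2 did not pass at any time in the main fit. Some alternative fits did call them, PHYC at SIM 4 days and PHYE and CRY2 at SIM 8 days. Tested directly, the light difference at SIM 4 days was not set apart from that at CIM 4 days for any member, with 0 of 10 past the test by edgeR and by DESeq2, 2 at an unadjusted p under 0.05, and 1.39% of all genes. At SIM 8 days against CIM 4 days 3 of 10 passed, PHYA, PHYB and PHYD, and 10.6% of all genes. That last count was 0 with only the libraries compared, 1 without the filter, and 1 without low-light CIM replicate 2, high-light CIM replicate 3 or low-light SIM 8 days replicate 2 or 3. The single call at CIM 4 days was lost without any 1 of the 3 low-light replicates or high-light replicate 1. The calls were small in size for all members but PHOT1, between 0.19 and 0.42 on the log2 scale, beside a median absolute log2 fold change of 0.20 over all genes at SIM 8 days.

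Loss of HY5 left 2 of 10 genes past the test at T0, 4 of 10 at CIM 4 days, 4 of 10 at SIM 4 days and 5 of 10 at SIM 8 days. The shares over all genes were 5.12%, 15.5%, 20.4% and 23.5%, with 1.98%, 6.37%, 10.4% and 10.1% higher and 3.14%, 9.15%, 10% and 13.4% lower. Of the members 0, 1, 1 and 2 were higher and 2, 3, 3 and 3 lower. The T0 count was 0 without Col-0 replicate 2 or hy5-2 replicate 1, and 1 without Col-0 replicate 3, with only the libraries compared or with DESeq2. The CIM count was 0 without hy5-2 replicate 2, 1 without hy5-2 replicate 3 or Col-0 replicate 1 or 2, and 2 without the filter. In culture under high light PHYA was higher and PHYB and CRY1 were lower in hy5-2 at all 3 times. PHOT1 was lower at CIM 4 days and SIM 8 days, UVR8 was lower at SIM 4 days, and CRY2 was higher at SIM 8 days. At T0 the called genes were PHYA and PHOT1, both lower in hy5-2.

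Cultured hy5-2 was also set against Col-0 of the low-light series. The test passed 0 of 10 genes at CIM 4 days, 1 at SIM 4 days and 0 at SIM 8 days, while 10.6%, 8.02% and 6.83% of all genes passed, so these counts are near the share over all genes. At an unadjusted p under 0.05 there were 0 members at CIM 4 days and 1, PHYD, at SIM 8 days, and DESeq2 also called 0 at both times. The gene that passed at SIM 4 days was PHOT1. For the other 9 genes at the 3 times, the interval of 2 standard errors around the log2 difference stayed between −0.30 and 0.27. At SIM 8 days it ran from −0.20 to 0.04 for PHYA, from −0.22 to 0.02 for PHYB and from −0.04 to 0.24 for CRY1. For PHYD it ran from −0.30 to −0.02 and left out 0. These intervals bound the difference at that size and do not show that levels were equal. Every hy5-2 library lay below every low-light library for PHYA, PHYB, PHYC and PHYD at SIM 8 days. The same held for PHYB at SIM 4 days and CRY2 at CIM 4 days, while PHYE and PHOT2 lay above at CIM 4 days.

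**Figure D2:**
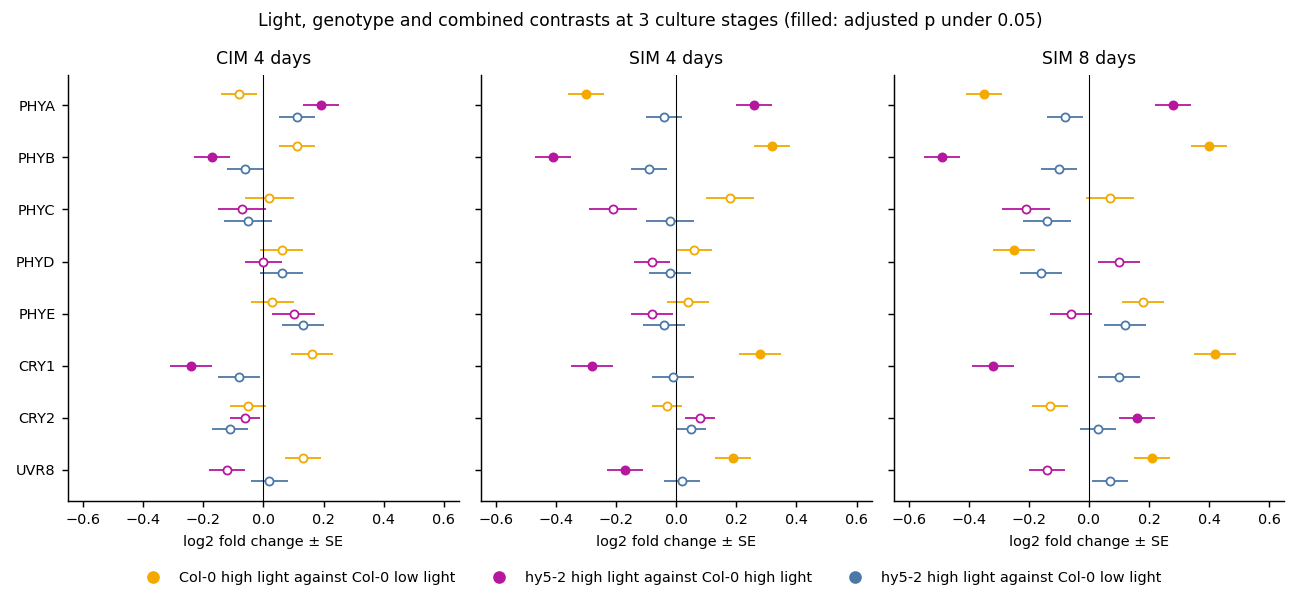
Log2 fold changes (points) with standard errors (bars) for 8 photoreceptor genes, PHOT1 and PHOT2 excepted, in high against low light, hy5-2 against Col-0 in high light, and hy5-2 (high light) against low-light Col-0, at CIM 4, SIM 4 and SIM 8 days. Filled points passed an adjusted p of 0.05; PHYB and CRY1 lie above 0 for light and below 0 for genotype, PHYA lies the other way, and no point is filled in the third comparison.

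PHYA (AT1G09570, chromosome 1, 3095256 to 3100357, minus strand, TAIR10, 5 exon blocks in the RefSeq annotation) encodes the light-labile phytochrome that senses far-red light and very weak light. It stood at 264, 296 and 292 CPM in the 3 Col-0 libraries at T0 and at 218, 237 and 244 CPM in hy5-2 at T0. At CIM 4 days it was 213, 201 and 231 CPM in Col-0 low light, 202, 199 and 211 CPM in Col-0 high light, and 219.9, 238 and 241 CPM in hy5-2. The T0 genotypes did not overlap, the 2 lights overlapped on CIM, and hy5-2 lay above Col-0 high light there. By SIM 4 days it was 212, 215 and 231 CPM under low light, 174, 181 and 181 CPM under high light and 212, 213 and 217 CPM in hy5-2. By SIM 8 days the values were 207, 205 and 200.4 CPM under low light, 140.2, 171 and 167 CPM under high light and 194, 193 and 194 CPM in hy5-2. On SIM every Col-0 high-light library lay below every library of the other 2 groups.

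PHYA fell in high light, with a log2 fold change (± SE) of −0.30 ± 0.06 at SIM 4 days (adjusted p = 0.000952) and −0.35 ± 0.06 at SIM 8 days (adjusted p = 6.51e-05). The log2 difference at CIM 4 days was −0.08 ± 0.06 (adjusted p = 0.596). The light difference itself changed between CIM 4 days and SIM 8 days by −0.28 ± 0.09 (adjusted p = 0.0465), but that call was lost without any 1 of 9 libraries, with adjusted p from 0.0575 to 0.184, the latter without the high-light SIM 8 days replicate 1 that holds the 140.2 CPM value. In hy5-2, PHYA was lower at T0, with a log2 difference of −0.29 ± 0.06 (adjusted p = 0.00525), and higher in culture, by 0.19 ± 0.06 at CIM 4 days (adjusted p = 0.0355), 0.26 ± 0.06 at SIM 4 days (adjusted p = 0.00285) and 0.28 ± 0.06 at SIM 8 days (adjusted p = 0.00153). The T0 call was lost without Col-0 replicate 2 (adjusted p = 0.0662) or hy5-2 replicate 1 (adjusted p = 0.0698). The CIM call was lost without Col-0 high-light replicate 1 (0.105) or 2 (0.119) or hy5-2 replicate 2 (0.118) or 3 (0.151), all as adjusted p.

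PHYB (AT2G18790, chromosome 2, 8139881 to 8144430, plus strand, 3 exon blocks) encodes the light-stable phytochrome that is the main red-light receptor of green seedlings. It stood at 116, 107 and 97.5 CPM in Col-0 and at 98.0, 95.1 and 105 CPM in hy5-2 at T0. On CIM it was 72.8, 74.4 and 71.0 CPM under low light, 78.3, 79.6 and 77.0 CPM under high light and 71.4, 68.5 and 69.6 CPM in hy5-2. The T0 genotypes overlapped, and on CIM the high-light libraries lay above the others by a few CPM. At SIM 4 days the values were 72.3, 74.6 and 71.7 CPM under low light, 94.1, 88.8 and 90.3 CPM under high light and 71.5, 69.6 and 63.9 CPM in hy5-2. By SIM 8 days they were 70.7, 74.6 and 71.5 CPM under low light, 94.2, 93.4 and 98.0 CPM under high light and 65.7, 68.5 and 68.9 CPM in hy5-2. On SIM the Col-0 high-light libraries formed the upper group at both times without overlap.

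PHYB rose in high light by 0.32 ± 0.06 at SIM 4 days (adjusted p = 5.2e-05) and by 0.40 ± 0.06 at SIM 8 days (adjusted p = 1.31e-06). At CIM 4 days the log2 difference was 0.11 ± 0.06 and did not pass (adjusted p = 0.311). The light difference was larger at SIM 8 days than at CIM 4 days by 0.29 ± 0.08 (adjusted p = 0.0154). PHYB was lower in hy5-2 than in Col-0 high light by a log2 difference of −0.17 ± 0.06 at CIM 4 days (adjusted p = 0.0378), −0.41 ± 0.06 at SIM 4 days (adjusted p = 6.97e-07) and −0.49 ± 0.06 at SIM 8 days (adjusted p = 2.52e-08). The change of the genotype difference from CIM 4 days to SIM 8 days was −0.33 ± 0.08 (adjusted p = 0.00502). In that comparison 1 of 10 members passed and 12.9% of all genes did, so the count is near that share. The count was 2 with RLE scaling, a replicate block, only the libraries compared or DESeq2. The same comparison for SIM 4 days passed 0 members and 7.36% of all genes with edgeR, with 2 members at an unadjusted p under 0.05 and 1 by DESeq2. The genotype call on CIM was lost without Col-0 high-light replicate 1 (0.0925), 2 (0.121) or 3 (0.0554) or hy5-2 replicate 2 (0.127) or 3 (0.112), all as adjusted p.

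The 250 bases before the RefSeq gene start (TAIR10.1) are shown for PHYB and for its closest paralog PHYD, which hold the letters of a G-box, and for PHYA and CRY1, which do not. The G-box CACGTG and the ACGT core that it contains are letters that HY5 and PIFs are known to bind. Capitals mark these motifs, read on both strands, with each sequence 5′ to 3′ on the strand of its gene.
PHYB (chr2:8139506-8139755, plus strand): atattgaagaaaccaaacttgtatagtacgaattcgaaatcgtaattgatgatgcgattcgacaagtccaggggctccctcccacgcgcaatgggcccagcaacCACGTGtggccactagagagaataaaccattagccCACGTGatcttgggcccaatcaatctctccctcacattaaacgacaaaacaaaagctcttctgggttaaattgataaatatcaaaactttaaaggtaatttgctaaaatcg
PHYD (chr4:9199841-9200090, minus strand): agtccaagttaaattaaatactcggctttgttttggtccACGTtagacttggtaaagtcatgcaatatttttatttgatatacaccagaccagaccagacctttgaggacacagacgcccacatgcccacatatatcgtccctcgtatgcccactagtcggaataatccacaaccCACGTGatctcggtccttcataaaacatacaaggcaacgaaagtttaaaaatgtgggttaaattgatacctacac
PHYA (chr1:3100820-3101069, minus strand): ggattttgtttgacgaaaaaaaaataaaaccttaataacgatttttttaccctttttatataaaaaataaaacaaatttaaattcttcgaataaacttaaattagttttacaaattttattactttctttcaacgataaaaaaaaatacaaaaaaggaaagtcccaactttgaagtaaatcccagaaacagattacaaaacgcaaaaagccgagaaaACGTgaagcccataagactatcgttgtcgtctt
CRY1 (chr4:5723401-5723650, plus strand): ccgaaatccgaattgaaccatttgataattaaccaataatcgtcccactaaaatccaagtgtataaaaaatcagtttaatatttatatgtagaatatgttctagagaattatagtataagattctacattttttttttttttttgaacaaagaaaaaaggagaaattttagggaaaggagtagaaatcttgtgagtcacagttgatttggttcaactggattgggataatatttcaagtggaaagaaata
PHYB had a G-box starting 146 and another starting 111 bases before the gene start. PHYD had a G-box at 75 bases and a further ACGT core at 211 bases, PHYA had an ACGT core at 33 bases, and CRY1 had neither. Of 27443 promoter windows of this length, 6.5% held a G-box and 44.1% an ACGT core, and among the 10 photoreceptor genes 2 and 6 did. These are matches of letters only.

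PHYD (AT4G16250, chromosome 4, 9195602 to 9199486, minus strand, 4 exon blocks) encodes a light-stable phytochrome that overlaps with phyB in shade responses. It held between 30.9 and 40.7 CPM in all libraries, with overlap between every pair of neighbours in the order of group means. At CIM 4 days it was 34.8, 31.5 and 30.9 CPM in low light, against 33.3, 33.9 and 33.8 CPM under high light. After 8 days on SIM it was 35.3, 38.7 and 40.7 CPM under low light, 33, 31.0 and 32.4 CPM under high light and 34.8, 33.1 and 35.1 CPM in hy5-2. The SIM 8 days high-light libraries lay below both other groups, by little. PHYD fell in high light at SIM 8 days by 0.25 ± 0.07 (adjusted p = 0.00438), the opposite direction to PHYB. Its light difference changed from CIM 4 days to SIM 8 days by −0.31 ± 0.09 (adjusted p = 0.0273), a call lost without any 1 of 7 libraries, with adjusted p from 0.0523 to 0.0963. The genotype difference at SIM 8 days was 0.10 ± 0.07 and did not pass (adjusted p = 0.338). Per kilobase, PHYB stood at 1.81 times PHYD in low light, 2.84 times in high light and 1.89 times in hy5-2 at SIM 8 days.

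PHYC (AT5G35840, chromosome 5, 14007826 to 14011764, plus strand, 3 exon blocks), whose product works as a partner of phyB in Arabidopsis, passed edgeR's test in none of the 21 comparisons made in the main fit. It ranged from 35 to 47.2 CPM over the 33 libraries, and group means ran from 36.2 CPM in hy5-2 at SIM 4 days to 42.4 CPM in Col-0 high light at SIM 8 days. The nearest to a call were the genotype differences, −0.21 ± 0.08 at SIM 4 days (adjusted p = 0.0632) and −0.21 ± 0.08 at SIM 8 days (adjusted p = 0.0548).

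PHYE (AT4G18130, chromosome 4, 10042137 to 10046082, minus strand, 4 exon blocks) encodes the phytochrome that adds to phyB in the shade response and flowering. It ranged from 33.8 to 52.3 CPM. Its values were 33.8, 40.5 and 35.1 CPM at T0 and 42.8, 38.4 and 43.4 CPM at CIM 4 days in low light, which overlap. The step from T0 to CIM, 0.19 ± 0.08, passed (adjusted p = 0.0324), and was lost without T0 replicate 1 (0.265) or 3 (0.166) or CIM replicate 1 (0.0785) or 3 (0.122), as adjusted p. The light difference at SIM 8 days, 0.18 ± 0.07, did not pass (adjusted p = 0.0706), with 49.3 ± 3.47 CPM (SD, n = 3) in high light and 43.6 ± 0.94 CPM in low light. PHYE overlaps AT4G18120 by 112 bases, and that neighbour held 216.3% of its reads, so small differences of PHYE are uncertain.

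The makeup of the phytochrome transcript pool shifted with light while its sum stayed in a narrow range. The 5 genes together summed to 147 ± 3.82 CPM per kb in Col-0 at T0 and to between 110 and 122 CPM per kb in the cultured groups. PHYA made up 57.1 ± 2.18% of this sum at T0, 51.9 ± 0.977% at SIM 8 days in low light, 42.9 ± 1.98% in high light and 51.7 ± 0.551% in hy5-2. PHYB made up 17.0 ± 0.472%, 23.8 ± 1.43% and 16.7 ± 0.285% at SIM 8 days in the same order. The PHYA to PHYB ratio per kilobase was 3.16, 2.97 and 3.03 at SIM 8 days in low light, 1.61, 1.98 and 1.84 in high light and 3.19, 3.05 and 3.03 in hy5-2. High-light libraries had the lower ratio without overlap, at both SIM times. An exact two-sided permutation test of 3 against 3 libraries gave p = 0.1, the smallest it can give, and 0.127 after adjustment over the 14 ratio tests made, so this ratio could not pass by that test.

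**Figure D3:**
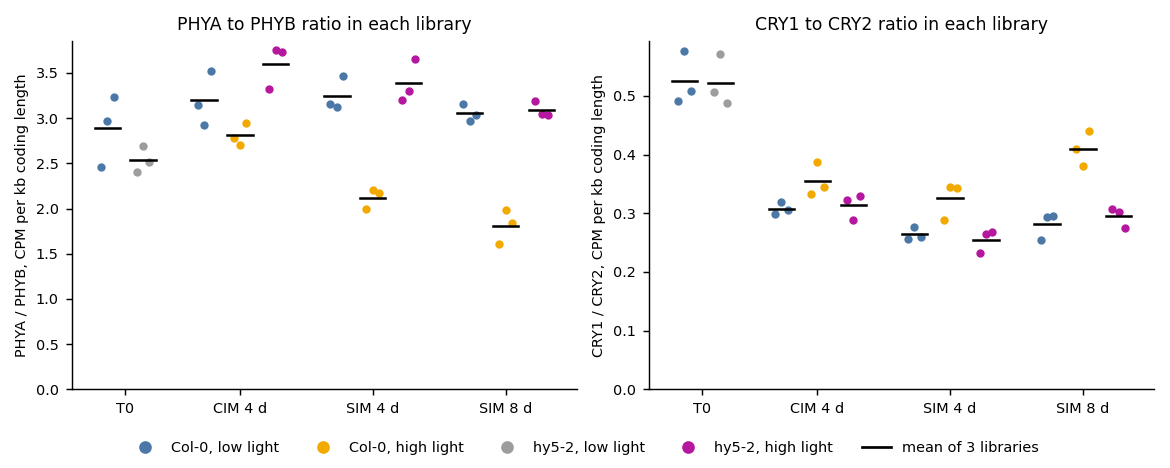
Ratio of PHYA to PHYB and of CRY1 to CRY2, each in CPM per kilobase of coding length, per library (points) by group, with the group mean as a bar across the points. On SIM the PHYA to PHYB ratio is lower in Col-0 high light than in the other groups, 1.61 to 1.98 against 2.97 to 3.19 at SIM 8 days, and the CRY1 to CRY2 ratio is higher.

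CRY1 (AT4G08920, chromosome 4, 5724103 to 5727253, plus strand, 4 exon blocks) encodes the light-stable cryptochrome that inhibits hypocotyl growth under bright blue light. It stood at 107, 123 and 113 CPM in Col-0 and 116, 118 and 109 CPM in hy5-2 at T0. On CIM it was 44.2, 44.1 and 42.3 CPM under low light, 46.8, 52.6 and 46.2 CPM under high light and 43.0, 38.0 and 42.4 CPM in hy5-2. All CIM libraries lay far below all T0 libraries, and the genotypes overlapped at T0. At SIM 4 days it was 47.6, 49.8 and 47.2 CPM under low light, 55.8, 59.5 and 59.4 CPM under high light and 45.9, 48.7 and 49.6 CPM in hy5-2. After 8 days on SIM it was 50.5, 51.5 and 53.1 CPM under low light, 66.4, 66.1 and 74.6 CPM under high light and 56.6, 57.9 and 51.8 CPM in hy5-2. On SIM the Col-0 high-light libraries stood above all others.

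CRY1 rose in high light by 0.28 ± 0.07 at SIM 4 days (adjusted p = 0.00267) and by 0.42 ± 0.07 at SIM 8 days (adjusted p = 8.73e-06), with 0.16 ± 0.07 at CIM 4 days (adjusted p = 0.167). In hy5-2 against Col-0 high light the log2 difference was −0.24 ± 0.07 at CIM 4 days (adjusted p = 0.011), −0.28 ± 0.07 at SIM 4 days (adjusted p = 0.0016) and −0.32 ± 0.07 at SIM 8 days (adjusted p = 0.00043). The CIM call was lost without Col-0 high-light replicate 2 (adjusted p = 0.116) or hy5-2 replicate 2 (adjusted p = 0.0963). Within high light CRY1 rose from CIM to SIM 4 days by 0.27 in Col-0 (adjusted p = 0.000958) and from SIM 4 to SIM 8 days by 0.24 ± 0.07 (adjusted p = 0.006), the latter lost without SIM 8 days replicate 3 (adjusted p = 0.081). Over that last step 1 of 10 members passed and 22.4% of all genes did, so with 10 genes the count is near that share. The count was 2 with DESeq2 or a replicate block and 0 with only the libraries compared. In hy5-2 CRY1 rose by 0.22 (adjusted p = 0.00586) and 0.21 (adjusted p = 0.026) over the same steps. The first of these was lost without CIM replicate 2 (adjusted p = 0.0561), and the second without SIM 4 days replicate 1 (0.13) or SIM 8 days replicate 1 (0.0923) or 2 (0.118), as adjusted p.

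CRY2 (AT1G04400, chromosome 1, 1185550 to 1188517, minus strand, 5 exon blocks) encodes the blue-light-labile cryptochrome that acts in dim light and in photoperiodic flowering. It stood at 196, 192 and 201 CPM in Col-0 at T0 and at 133, 124 and 125 CPM at CIM 4 days in low light. After 8 days on SIM it was 178, 158 and 162 CPM under low light, 145, 156 and 152 CPM under high light and 165, 173 and 169 CPM in hy5-2. The T0 and CIM libraries did not overlap, and at SIM 8 days high light lay below hy5-2 and below every low-light library. CRY2 passed no light comparison in the main fit, with −0.13 at SIM 8 days (adjusted p = 0.0753). It was higher in hy5-2 at SIM 8 days by 0.16 ± 0.06 (adjusted p = 0.0345), a call lost without Col-0 high-light replicate 1 (0.15) or 3 (0.0749) or without hy5-2 replicate 1 (0.0526), 2 (0.111) or 3 (0.0919), as adjusted p. From CIM to SIM 4 days CRY2 rose in all 3 series, by 0.37 ± 0.06 in low light (adjusted p = 1.18e-06), 0.39 in high light (adjusted p = 3.83e-07) and 0.53 in hy5-2 (adjusted p = 6.79e-10). The CRY1 to CRY2 ratio per kilobase was 0.525 in Col-0 at T0, and at SIM 8 days 0.281 in low light, 0.41 in high light and 0.295 in hy5-2. The exact permutation p for light and for genotype at SIM 8 days was again 0.1, the smallest possible.

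UVR8 (AT5G63860, chromosome 5, 25554508 to 25559499, minus strand, 13 exon blocks) encodes the UV-B receptor, which leaves its dimer on UV-B and binds COP1. It stood at 109.9, 112 and 107 CPM in Col-0 and 99.3, 96.9 and 106 CPM in hy5-2 at T0. On CIM it was 65.6, 58.8 and 70.7 CPM under low light, 70.3, 72.6 and 71.3 CPM under high light and 66.2, 64.0 and 67.6 CPM in hy5-2. CIM libraries lay below T0 without overlap. At SIM 4 days it was 93.5, 91.4 and 83.7 CPM under low light, 102, 103 and 101 CPM under high light and 90.9, 92.4 and 89.0 CPM in hy5-2. By SIM 8 days it was 84.9, 88.3 and 81.6 CPM under low light, 104, 101 and 91.0 CPM under high light and 87.6, 88.8 and 91.6 CPM in hy5-2. High light stood above low light at both SIM times, and overlapped with hy5-2 at SIM 8 days. UVR8 rose in high light by 0.19 ± 0.06 at SIM 4 days (adjusted p = 0.0243) and 0.21 ± 0.06 at SIM 8 days (adjusted p = 0.00703). The SIM 4 days call was lost without low-light replicate 3 (adjusted p = 0.212) or high-light replicate 2 (adjusted p = 0.0732). In hy5-2 the difference of −0.17 ± 0.06 at SIM 4 days passed (adjusted p = 0.039), but without Col-0 high-light replicate 1 (0.062), 2 (0.102) or 3 (0.0697) or hy5-2 replicate 1 (0.082) or 3 (0.133) its adjusted p was above 0.05. At SIM 8 days it was −0.14 (adjusted p = 0.0837).

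The members were also compared between stages. Of the 10 genes 7 passed between T0 and CIM 4 days in Col-0 low light, 6 lower and 1 higher, where 79.1% of all genes passed, with 40.0% lower and 39.1% higher. With 10 genes, the 7 that passed and the 6 lower are near these shares. The log2 changes were −0.40 ± 0.06 for PHYA (adjusted p = 1.16e-06), −0.56 ± 0.06 for PHYB (1.26e-10), −0.63 ± 0.06 for CRY2 (5.14e-12), −0.75 ± 0.06 for UVR8 (5.8e-13) and −1.4 ± 0.07 for CRY1 (4.96e-19). The sixth was PHOT1. In bulk samples fewer cells of a type and less RNA per cell cannot be told apart. The summed markers of green tissue, xylem, phloem, epidermis and stomatal lineage fell over the same step. Those of callus and shoot meristem rose. Between CIM and SIM 4 days 3 of 10 passed in low light, 7 of 10 in high light and 5 of 10 in hy5-2, with 43.9%, 49.0% and 53.1% of all genes. UVR8 rose in each, by 0.46 ± 0.06 in low light (adjusted p = 1.17e-07), 0.51 in high light (adjusted p = 6.08e-09) and 0.46 in hy5-2 (adjusted p = 5.86e-08). In high light PHYA fell over this step by 0.19 (adjusted p = 0.0135) and PHYB rose by 0.22 (adjusted p = 0.00143), and the PHYA call was lost without CIM replicate 3 (adjusted p = 0.0625) or SIM replicate 1 (adjusted p = 0.0673). Between SIM 4 and SIM 8 days in low light 0 of 10 passed with edgeR and with DESeq2, with 2 at an unadjusted p under 0.05, while 14.9% of all genes passed. In hy5-2 over this step 2 of 10 passed, CRY1 and PHOT1, and 19.8% of all genes did.

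PHOT1 (AT3G45780, chromosome 3, 16816866 to 16824210, plus strand, 21 exon blocks) encodes the phototropin that drives phototropism over a wide range of blue light. It stood at 287, 395 and 368 CPM in Col-0 and at 191, 239 and 229.8 CPM in hy5-2 at T0. On CIM it was 2.45, 1.53 and 2.51 CPM under low light, 7.46, 4.77 and 4.92 CPM under high light and 3.51, 1.34 and 2.22 CPM in hy5-2. The transcript was thus at 1.34 to 7.46 CPM after 4 days where every T0 library had at least 191 CPM, and the T0 genotypes did not overlap. At SIM 4 days it was 1.85, 3.83 and 5.16 CPM under low light, 10.4, 8.62 and 10.2 CPM under high light and 7.61, 8.44 and 11.7 CPM in hy5-2. By SIM 8 days it was 1.45, 1.9 and 4.84 CPM under low light, 10.4, 10.5 and 16.0 CPM under high light and 3.82, 4.8 and 4.41 CPM in hy5-2. High light lay above low light at every time, and hy5-2 overlapped with high light at SIM 4 days and with low light at CIM 4 and SIM 8 days. The lowest library held 12 reads of PHOT1, so culture values carry wide counting error.

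From T0 to CIM 4 days in low light PHOT1 fell 160-fold, a log2 change of −7.32 ± 0.27 (adjusted p = 1.88e-18). In high against low light it rose by 1.38 ± 0.40 at CIM 4 days (2.6-fold, adjusted p = 0.0293), 1.32 ± 0.30 at SIM 4 days (adjusted p = 0.00283) and 2.22 ± 0.36 at SIM 8 days (4.66-fold, adjusted p = 2.71e-05). The CIM call was lost without low-light replicate 1 (0.0613), 2 (0.142) or 3 (0.0711) or high-light replicate 1 (0.145), as adjusted p. In hy5-2 against Col-0 the log2 difference was −0.67 ± 0.16 at T0 (adjusted p = 0.0136), −1.27 ± 0.36 at CIM 4 days (adjusted p = 0.0169), −0.08 ± 0.27 at SIM 4 days (adjusted p = 0.908) and −1.52 ± 0.32 at SIM 8 days (adjusted p = 0.000806). The T0 call was lost with DESeq2 (adjusted p = 0.242) and without Col-0 replicate 2 (0.125) or 3 (0.0671) or hy5-2 replicate 1 (0.107). The CIM call was lost without Col-0 high-light replicate 1 (0.106) or hy5-2 replicate 2 (0.0971) or 3 (0.0706), all as adjusted p. From CIM to SIM 4 days PHOT1 rose by 0.77 ± 0.28 in high light (adjusted p = 0.0233) and by 1.96 ± 0.34 in hy5-2 (adjusted p = 2.96e-05), and in hy5-2 it then fell by 1.08 ± 0.33 to SIM 8 days (adjusted p = 0.0198). The high-light step was lost without CIM replicate 2 (0.0987) or 3 (0.0855) or SIM replicate 3 (0.0846), and the last hy5-2 step without SIM 4 days replicate 3 (0.109) or SIM 8 days replicate 1 (0.0901) or 3 (0.0511).

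Against low-light Col-0 at SIM 4 days, hy5-2 in high light held more PHOT1, by 1.24 ± 0.32 (adjusted p = 0.0133), a call lost without low-light replicate 1 (0.0589) or 2 (0.0574) or hy5-2 replicate 3 (0.094). At SIM 4 days the green tissue sum in hy5-2, 7.8 to 15.8 CPM, was below that of low-light Col-0, 45.6 to 127 CPM, the opposite order to PHOT1. At T0 to CIM and in high against low light PHOT1 and the green sum moved the same way. From T0 to CIM the xylem, phloem and epidermis sums also fell. In hy5-2 against Col-0 high light PHOT1 and the green sum were both lower at CIM 4 and SIM 8 days. At SIM 4 days the green sum was 463 to 594 CPM in Col-0 high light, above hy5-2, while PHOT1 overlapped between them. The part of green or other tissue in the PHOT1 values was not tested.

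**Figure D4:**
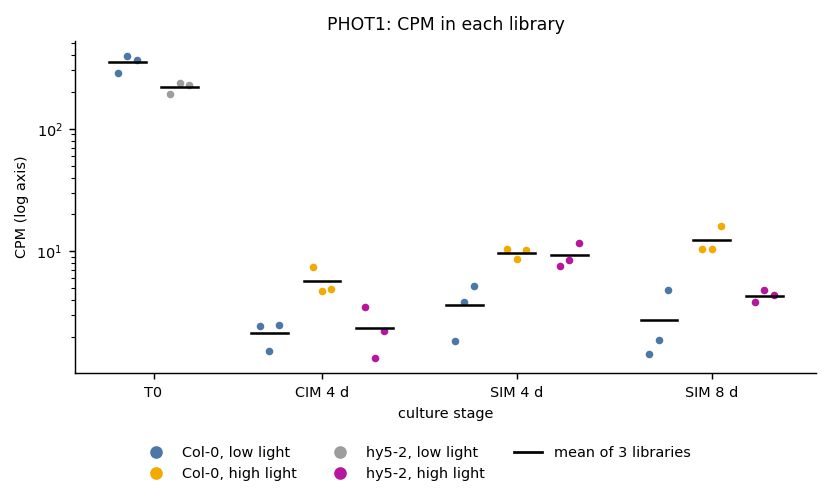
PHOT1 in CPM per library (points) over the 11 groups, on a log axis, with the group mean as a bar across the points. T0 libraries lie between 191 and 395 CPM and cultured libraries between 1.34 and 16.0 CPM, with Col-0 high light above low light at each culture time.

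PHOT2 (AT5G58140, chromosome 5, 23524427 to 23533111, plus strand, 21 exon blocks) encodes the phototropin of the chloroplast avoidance response. A second gene, AT5G58150, lies on the opposite strand within it (23530081 to 23532840), and whether reads were counted by strand is not given in the sources used here. Its count was 26.1 to 42.0% of that of PHOT2 in Col-0 at T0 and 72.8 to 87.5% in culture, and it exceeded PHOT2 in 0 libraries. As counted, PHOT2 stood at 65, 76.3 and 72.7 CPM at T0 and at 71.2, 70.1 and 69.6 CPM at CIM 4 days in low light, which overlap. PHOT2 minus the neighbour was 48.3 ± 9.2 CPM at T0 and 10 ± 1.12 CPM at CIM 4 days (SD, n = 3). If all reads of the neighbour were also counted for PHOT2, the change from T0 to CIM would be −2.27 (adjusted p = 5.54e-17) in place of −0.02. Both values are given because the deposited counts do not tell them apart, and this alternative was chosen after seeing the data.

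PHOT2 stood at SIM 8 days at 89.2, 93.3 and 84.2 CPM in the low-light libraries and at 119.7, 98.7 and 95.3 CPM in the high-light ones. High light lay above low light without overlap, by 0.23 ± 0.08 (adjusted p = 0.0216). This call was lost without low-light replicate 3 (adjusted p = 0.0935) or high-light replicate 1 (log2 difference 0.13, adjusted p = 0.234). With the neighbour taken off, the light difference was 0.48 at CIM 4 days (adjusted p = 0.0255), 0.38 at SIM 4 days (adjusted p = 0.0359) and 0.82 at SIM 8 days (adjusted p = 9.21e-06), and the genotype difference at SIM 8 days was −0.68 (adjusted p = 0.000143). PHOT2 as counted rose from CIM to SIM 4 days by 0.52 ± 0.08 in low light (adjusted p = 7.45e-07), 0.47 in high light (adjusted p = 2.88e-06) and 0.41 in hy5-2 (adjusted p = 2.44e-05).

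**Figure D5:**
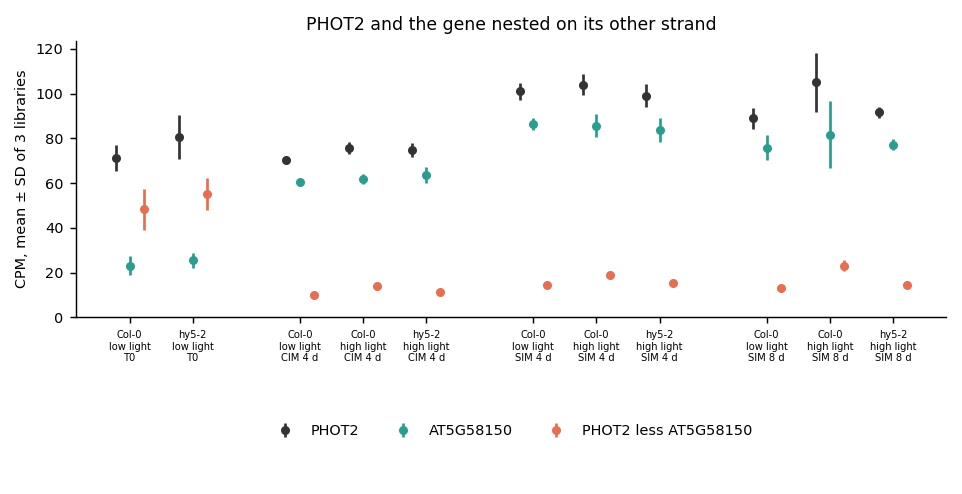
PHOT2, the nested opposite-strand gene AT5G58150 and their difference in CPM (mean ± SD, n = 3) over the 11 groups. The neighbour is at 23.0 CPM in Col-0 at T0 and at 60.3 to 86.4 CPM in the cultured groups, and the difference falls from 48.3 CPM at T0 to 10 CPM at CIM 4 days in low light.

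Some of the small calls also depended on the fit. When only the libraries compared were fitted, the adjusted p of 12 called results was above 0.05. For light these were UVR8 at SIM 4 days (0.0784), PHYD (0.0685), UVR8 (0.0626) and PHOT2 (0.0912) at SIM 8 days, and the changes of the light difference of PHYA (0.0811), PHYB (0.0835) and PHYD (0.0532). For genotype they were PHOT1 at T0 (0.0532), PHYA at CIM 4 days (0.0684), UVR8 at SIM 4 days (0.0531) and CRY2 at SIM 8 days (0.128), and for the stages CRY1 from SIM 4 to SIM 8 days in high light (0.0831). Without the filter on low counts 7 calls were lost, UVR8 (0.0631), PHYA (0.0663), PHYB (0.0783) and CRY2 (0.107) in the genotype comparisons, CRY1 in the last hy5-2 step (0.0559), and the changes of the light difference of PHYA (0.0869) and PHYD (0.0785). RLE scaling ended the calls of UVR8 for genotype at SIM 4 days (0.0575) and of PHYE from T0 to CIM (0.0595), and DESeq2 also ended the latter (0.0825).

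Genes that act around the receptors were read as lists. In high against low light, the list of 8 genes with COP1, the 4 SPA genes, the UVR8 repressors RUP1 and RUP2 and DET1, a further repressor of light responses that acts in another complex, had 4, 5 and 6 members that rose and none that fell at CIM 4, SIM 4 and SIM 8 days. Their median log2 fold changes were 0.80, 0.84 and 0.87, beside −0.013, −0.016 and −0.011 over all genes. Over all genes 5.14%, 9.09% and 16.0% were higher at these times. SPA3, a COP1 partner, rose by 0.97, 0.90 and 1.22 (adjusted p = 4.09e-09, 1.41e-09 and 3.42e-12). In hy5-2 against Col-0 high light 6, 5 and 6 of the 8 fell and none rose, with medians of −0.95, −0.87 and −0.87. The shares of all genes that were lower in these comparisons were 9.15%, 10% and 13.4%. SPA4, a further COP1 partner, fell, with log2 changes of −1.46, −1.25 and −1.18 (adjusted p = 1.56e-12, 3.63e-12 and 1.28e-11). At T0 1 of 8 rose in hy5-2 and none fell, beside 1.98% of all genes higher and 3.14% lower. From T0 to CIM 4 days in low light 6 of 8 fell, where 40.0% of all genes were lower. The median was −0.33, with RUP1 set at the bound that 3 reads allow. RUP1, a UVR8 repressor, held 72 reads at T0 and 0 at CIM. SPA3 overlaps a neighbour by 57 bases, and that neighbour held 114.1% of its reads.

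The 11 genes of phototropin signalling and chloroplast movement had 4, 7 and 8 members that rose in high light at the 3 times, and none that fell. The shares of all genes that were higher at these times were 5.14%, 9.09% and 16.0%. In hy5-2 2 of the 11 fell at T0 and 4, 7 and 7 in culture, and none rose. The shares of all genes that were lower in hy5-2 were 3.14% at T0 and 9.15%, 10% and 13.4% in culture. With PKS2 left out on SIM, where it held 3 reads or fewer in both groups, the medians were 0.47, 0.70 and 0.95 for light and −0.34, −0.79 and −0.77 for genotype in culture. RPT2, a phototropin partner in phototropism, rose in high light by 0.96, 1.32 and 1.99 (adjusted p = 1.91e-06, 5.26e-08 and 2.12e-10) and fell in hy5-2, with log2 changes of −1.07, −1.91 and −2.32 (adjusted p = 1.25e-07, 1.42e-10 and 1.91e-11). NPH3, the substrate and partner of phot1, fell in hy5-2, with a log2 change of −0.90 at T0 (adjusted p = 0.000199) and −1.55 at CIM 4 days (adjusted p = 1.57e-06), though it overlaps neighbours by 27 bases that hold many more reads. PMI1, needed for chloroplast movement, stood at 0.103 ± 0.117 CPM in low light, with 3 reads in the group, and at 9.88 ± 2.55 CPM in high light at SIM 8 days. From T0 to CIM 4 days in low light 11 of 11 fell, where 40.0% of all genes were lower. The median was −2.38 beside −0.004 over all genes, and PHOT1 also fell. CHUP1, which anchors chloroplasts to actin, fell by 2.38 (adjusted p = 2.2e-18), and WEB1 fell by 1.87 (adjusted p = 6.9e-18).

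Of the 7 PIF genes, bHLH factors that bind active phytochrome, 1 rose in high light at CIM 4 days, 1 at SIM 4 days and 4 at SIM 8 days, when 1 fell, with medians of 0.14, 0.35 and 1.78. Over all genes 5.14%, 9.09% and 16.0% were higher at these times, and 1 of 7 is near the first shares. PIF5 rose at SIM 8 days by 1.78 (adjusted p = 2.67e-09) and PIF6 fell by 0.40 (adjusted p = 0.00327). UNE10, also known as PIF8, held 2 reads at CIM 4 days in low light and stood at 2.93 ± 0.434 CPM in high light, and at SIM 8 days the values were 0.0648 ± 0.059 CPM, also 2 reads, and 7.29 ± 1.38 CPM. In hy5-2 3 of the 7 fell at T0 and 1, 1 and 4 in culture, with none that rose and medians of −0.39, −0.27, −0.40 and −1.42. The all-gene medians were 0.007, 0.011, 0.011 and 0.006, and 3.14%, 9.15%, 10% and 13.4% of all genes were lower. From T0 to CIM, where 40.0% of all genes were lower, 6 fell and PIF6 rose, by 1.32 (adjusted p = 1.5e-11), while PIF5 fell by 6.39 (adjusted p = 1.39e-24) and PIF1 fell by 5.65 (adjusted p = 4.41e-22). PIF6 and PIF1 overlap neighbours whose reads came to 73.6% and 19.0% of theirs.

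Genes for the phytochrome chromophore and for phytochrome nuclear import had members called in both directions. Of 11 listed, 9 were tested, and 1, 1 and 3 rose and 0, 1 and 1 fell in high light at the 3 times. Of all genes 5.14%, 9.09% and 16.0% were higher and 3.14%, 4.39% and 11.6% lower. The counts at CIM 4 and SIM 4 days are near these shares. The medians were −0.07, 0.09 and 0, beside −0.013, −0.016 and −0.011 over all genes. TZP, a nuclear partner of the phytochromes, rose by 1.70, 1.79 and 2.02 in high light (adjusted p = 1.84e-11, 2.59e-13 and 5.83e-14) and fell in hy5-2, with log2 changes of −2, −2.33 and −2.59 (adjusted p = 9.55e-14, 1.27e-15 and 5.42e-16). HY2, which makes phytochromobilin, had a log2 change of −0.50 in hy5-2 at SIM 8 days (adjusted p = 0.00234). In culture 2, 2 and 3 of the 9 fell and 0, 1 and 0 rose in hy5-2. Of all genes 9.15%, 10% and 13.4% were lower and 6.37%, 10.4% and 10.1% higher in these comparisons. With 9 genes, the counts in culture are near those shares. At T0 0 of the 9 passed between genotypes by edgeR, with a median of −0.12. FHL, which carries phyA into the nucleus, was the one that rose, by 0.71 at SIM 4 days (adjusted p = 0.0227). From T0 to CIM 4 of the 9 rose and 3 fell, with a median of 0.14. These counts are near the 39.1% of all genes that were higher and the 40.0% that were lower. FHL fell by 2.39 (adjusted p = 7.78e-13) and TZP fell by 1.99 (adjusted p = 3.29e-15), while HY1, the heme oxygenase of chromophore synthesis, rose by 0.84 (adjusted p = 7.08e-11).

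The 4 other flavoproteins with a LOV or cryptochrome-like domain had 2, 3 and 3 members that rose in high light, with medians of 0.97, 1.13 and 1.41, where 5.14%, 9.09% and 16.0% of all genes were higher. In hy5-2 1 fell at T0 and 2, 2 and 2 in culture, with medians of −0.28, −0.45, −0.39 and −0.45, where 3.14%, 9.15%, 10% and 13.4% of all genes were lower. From T0 to CIM 4 of 4 fell, with a median of −0.78, and 40.0% of all genes did. CRY3, a cryptochrome-DASH protein of organelles, rose by 1.82, 2.76 and 3.13 in high light (adjusted p = 9.5e-07, 7.99e-11 and 2.57e-11) and fell in hy5-2, with log2 changes of −3.19, −4.10 and −4.26 (adjusted p = 3.16e-11, 8.11e-13 and 6.56e-13). FKF1, a LOV-domain F-box protein of flowering time, rose in high light by 2.15, 2.01 and 2.53 (adjusted p = 9.95e-08, 3.08e-07 and 2.4e-07). In hy5-2 against Col-0 it fell at T0, CIM 4 and SIM 8 days, with log2 changes of −1.07, −0.74 and −0.68 (adjusted p = 0.00116, 0.00703 and 0.0478). Against low-light Col-0, FKF1 in cultured hy5-2 was higher, by 1.41, 1.55 and 1.85 (adjusted p = 0.000369, 0.000234 and 0.000714). CRY3 was lower there at CIM 4 and SIM 4 days, by log2 changes of −1.37 and −1.34 (adjusted p = 0.00407 and 0.0285). The light and genotype values of these lists rest on the same Col-0 high-light libraries. CIB1, the one cryptochrome partner tested as a list of its own, overlaps a neighbour by 1784 bases and is not read for a direction.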

How the data were processed

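RNA-seq libraries of Arabidopsis hypocotyl explants, 11 groups of 3 biological replicates per the design text, were read as the authors' deposited raw counts per locus, one table for the series with TAIR10 coordinates. Per the labels' protocols, RNA was extracted with an RNeasy kit and libraries were made with a stranded KAPA mRNA kit. Per the submitters' processing notes STAR, SAMtools, bedtools, edgeR and TAIR10 were used. Whether counting used strand, and how reads with several matches were treated, is not given in the sources used here. No 2 libraries were identical.

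Counts were fitted with edgeR 4.0.16 (R 4.3.3) across all 33 libraries, with filterByExpr at its defaults of 10 counts and 15 in total, TMM scaling, 1 coefficient per group and a robust quasi-likelihood test. P-values were adjusted by Benjamini-Hochberg over the 20842 genes tested, with calls at 0.05. CPM use TMM-scaled totals, and levels between genes were divided by the RefSeq coding length. The scripts were tested on simulated data. Alternatives were RLE scaling, no filter, DESeq2 1.42.0, a replicate block, only the libraries compared, and leaving out each library. PHOT2 less AT5G58150 was added after seeing the data.

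The 10 members and the gene lists were chosen with earlier results of these data known. Named genes were the 10 members, HY5 and, per list and comparison, up to 2 in each direction with the smallest adjusted p among those that passed. Of the listed loci 9 had no symbol in the reference and were left out, and PIF8 is named UNE10 there. Promoters were read from the RefSeq TAIR10.1 genome. All 26712 loci compared overlapped the same locus there on chromosome and strand, and 5084 had the same start and end.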

Additional observations from a re-analysis of the deposited data

Results flagged for a closer look

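Effects under the same contrast that differed between culture times, by the test of the difference itself in edgeR, were found for 3 members. The light effect at SIM 8 days minus that at CIM 4 days was −0.28 for PHYA (log2 scale, adjusted p = 0.0465), 0.29 for PHYB (adjusted p = 0.0154) and −0.31 for PHYD (adjusted p = 0.0273). The genotype effect at SIM 8 days minus that at CIM 4 days was −0.33 for PHYB (adjusted p = 0.00502). The PHYA light difference was lost under 11 of 17 alternatives and that of PHYD under 9 of 17, among them 9 and 7 of the 12 fits that left out 1 library. With only the libraries compared all 3 light differences were lost, with adjusted p of 0.0811 for PHYA, 0.0835 for PHYB and 0.0532 for PHYD, and for PHYB this was the only loss among the 17. The PHYB genotype difference was lost under 0 of 17.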

How the results depend on the processing

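Of 210 results (10 genes in 21 comparisons) 58 passed the test, and 0 of the called results changed sign under any alternative. Calls lost and gained were 2 and 2 with RLE scaling, 7 and 0 without the filter, 2 and 4 with DESeq2, 12 and 1 with only the libraries compared, and 21 and 13 over the fits that left out 1 library. Counts of members that moved by over 1.5 times were as follows. RLE scaling gave 2 for the genotype effect at SIM 8 days minus that at CIM 4 days. No filter gave 2 for hy5-2 against Col-0 at CIM 4 days, 1 for SIM 8 against SIM 4 days in hy5-2 and 1 for the light effect at SIM 8 days minus that at CIM 4 days. Only the libraries compared gave 4 for light at SIM 8 days, 1 for genotype at T0, 0 for SIM 8 against SIM 4 days in high light, 0 for the light difference and 2 for the genotype difference at SIM 8 days. DESeq2 gave 1 for genotype at T0, 2 for SIM 8 against SIM 4 days in high light, and 1 and 2 for the genotype difference at SIM 4 and SIM 8 days. The cause was not tested. With 1 library left out, counts ranged from 0 to 1, 4 to 6 and 6 to 8 for light at the 3 times, from 0 to 2, 0 to 4, 3 to 4 and 4 to 6 for genotype, from 6 to 8, 3 to 3 and 0 to 0 for the stages in low light, 5 to 7 and 0 to 2 in high light, 4 to 5 and 0 to 2 in hy5-2, from 0 to 0, 0 to 1 and 0 to 0 for hy5-2 (high light) against low-light Col-0, 0 to 0 and 1 to 3 for the light difference and 0 to 1 and 1 to 1 for the genotype difference. Replicates with the same number were not treated as pairs in the main fit. The sample titles name no batch, so whether same-numbered replicates share one is not known. Their deviations from group means correlated at a median of 0.07 (−0.061 to 0.376, 165 pairs). For other numbers the median was −0.023 (−0.295 to 0.171, 330 pairs). A replicate block lost 0 calls and gained 8, and gave 2 for SIM 8 against SIM 4 days in high light and 1 and 2 for the genotype difference at SIM 4 and SIM 8 days. RLE-scaled totals moved 2 of 110 group levels by over 1 SD, and unscaled totals moved 56 by up to 14.8%. Depth limits PHOT1 in culture, with as few as 12 reads in a library.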

Other observations

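For each photoreceptor gene the 2 named genes whose group means of log2 CPM followed it most closely over the 11 groups were read, among 7487 genes with a symbol, as Pearson r. The groups share libraries, stages and scaling, so r is a description. CRY1 was followed by CPK32 (0.995) and EID1 (0.993), CRY2 by URH1 (0.994) and NDL1 (0.994), and PHYB by SSR16 (0.993) and EMB506 (0.988). PHOT1 was followed by PYL1 (0.991) and LCL1 (0.988), UVR8 by MIPS3 (0.981) and TPS1 (0.981), and PHYE by NRPD2B (0.986) and RAC6 (0.967). PHYA was followed by LRX2 (0.966) and DER2.2 (0.961), and PHOT2 by DOF1 (0.964) and BMY3 (0.962). For PHOT2 this is the profile as counted, in which reads of AT5G58150 cannot be told apart. The nearest genes to PHYC, DUF5 (0.895) and PSRP4 (0.892), and to PHYD, DRP4D (0.838) and XXT4 (0.835), were less close. Several members drop from T0 to culture, which weighs on r over all groups. Over the 9 cultured groups alone r was 0.973 and 0.969 for CRY1 with CPK32 and EID1, 0.93 and 0.917 for PHOT1 with PYL1 and LCL1, 0.947 and 0.87 for PHYE with NRPD2B and RAC6, and 0.943 and 0.94 for PHYA with LRX2 and DER2.2. For the genes named with the other members it was between 0.847, for PHYD with DRP4D, and 0.992, for CRY2 with NDL1. The choice of genes was made over the 11 groups.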
